A study of Homo sapiens with 51 samples.

Results

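The collagen genes were studied as every gene symbol of the count table made of COL, a number, A and a number. There were 44 such genes among 25421 gene symbols, and all 44 matched a RefSeq gene. The description covers the 40 with at least 10 counts, summed over the 3 libraries, in some group. The other 4 (COL2A1, COL8A2, COL23A1 and COL26A1) stayed under that minimum in all 17 groups.

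Collagens are extracellular proteins of 3 chains wound into a triple helix, and each gene encodes 1 chain type. Fibrillar collagens build the fibres of connective tissue, type IV collagens the sheet of the basement membrane under an epithelium, and type VI collagens the beaded filaments between both. The FACIT collagens sit on the surface of fibrils, while the transmembrane collagens stay anchored in the cell surface. Multiplexins are basement membrane collagens with an interrupted helix. In pancreatic ductal adenocarcinoma (PDA), a tumour known for its dense collagen-rich stroma, fibrillar collagen comes mainly from fibroblasts, and carcinoma cells also make collagens. OVOL2 is a zinc-finger transcription factor of epithelia, known as a repressor of ZEB1, a driver of the mesenchymal state.

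The study measured 5 human PDA cell lines by PLATE-seq, in which 3′-end cDNA of each well is barcoded before pooling. KP4, PANC1 and PK45H were each measured untreated, after lentiviral delivery of an open reading frame for OVOL2 or for the fluorescent control protein mCherry, and after either virus was combined with a second virus that carries M2rtTA, which activates tetracycline-responsive promoters in the presence of doxycycline. The transduced cells received virus at a multiplicity of infection of 2 with 8 µg/ml polybrene, then 2.5 µg/ml puromycin and 0.6 µg/ml doxycycline on the following day, controls included. HPAFII and PATU8988S were measured untreated only, and RNA was taken after 6 days. Each of the 17 groups held 3 libraries, described as triplicates; whether these were separate cultures is not stated, so p-values measure the spread between these libraries, which may be technical. Whether untreated cells received polybrene, puromycin or doxycycline is not stated.

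Library totals were 1165399 to 7490556 counts over the 51 libraries, and the lowest was HPAFII replicate 2. Levels below are counts scaled to a common total (CPM, scaled with TMM factors), so that 1 CPM stands for about 1 to 7 counts and levels near it carry large counting error. Levels of different genes were not set against each other, apart from sums of marker levels and the share of COL6A3 in the collagen counts. The 3′-end counts were not scaled by length. Changes are log2 fold changes of the fitted means with their standard error (SE). Adjusted p-values are Benjamini-Hochberg values of edgeR's quasi-likelihood test over every gene tested, and a change is said to rise or fall where this value was under 0.05.

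OVOL2 itself was read in each library first. Without M2rtTA, its level in the libraries labelled OVOL2 overlapped that in the mCherry libraries in all 3 lines: 0.626 to 1.53 CPM against 0 to 1.93 in KP4, 0.201 to 1.38 against 0.367 to 2.12 in PANC1, and 1.18 to 1.87 against 0.388 to 2.21 in PK45H. The 3′-end counts therefore do not show which of these libraries carried the open reading frame, and whether its viral transcript is counted is not stated. With M2rtTA, OVOL2 stood at 2.18 to 10.5 CPM against 0 to 1.16 in KP4 and at 4.26 to 4.66 against 0.555 to 1.74 in PK45H. In PANC1 the ranges still overlapped, at 1.46 to 2.87 against 0.415 to 1.56 CPM. Markers of ductal carcinoma lines summed to 651 to 14500 CPM over the groups, whereas endothelial markers summed to 3.55 to 15.6 CPM and leukocyte markers to 0.427 to 32.3 CPM.

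Upstream sequences are shown for 4 members whose counts in PK45H are described below: COL17A1 and COL16A1, which were higher with OVOL2 and M2rtTA, and COL12A1 and COL13A1, which were lower. COL17A1 encodes a transmembrane collagen of the hemidesmosome, the anchor of epithelial cells on the basement membrane. Each run is the 250 bases before the RefSeq start of the gene (GRCh38.p14), 5′ to 3′ on the gene's strand, and capitals mark CACCTG, the E-box bound by ZEB factors, on either strand.
COL17A1 (chr10:104085881-104086130, minus strand): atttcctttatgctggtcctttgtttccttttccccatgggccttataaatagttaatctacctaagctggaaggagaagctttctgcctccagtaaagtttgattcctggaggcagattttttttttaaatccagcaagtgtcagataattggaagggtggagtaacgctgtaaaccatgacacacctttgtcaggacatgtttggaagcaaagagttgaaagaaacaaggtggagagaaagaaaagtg
COL16A1 (chr1:31704018-31704267, minus strand): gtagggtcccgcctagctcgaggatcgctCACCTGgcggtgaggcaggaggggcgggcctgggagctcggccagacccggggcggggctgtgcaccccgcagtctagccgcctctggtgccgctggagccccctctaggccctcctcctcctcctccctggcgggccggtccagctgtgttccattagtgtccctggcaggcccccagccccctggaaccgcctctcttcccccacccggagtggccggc
COL12A1 (chr6:75206054-75206303, minus strand): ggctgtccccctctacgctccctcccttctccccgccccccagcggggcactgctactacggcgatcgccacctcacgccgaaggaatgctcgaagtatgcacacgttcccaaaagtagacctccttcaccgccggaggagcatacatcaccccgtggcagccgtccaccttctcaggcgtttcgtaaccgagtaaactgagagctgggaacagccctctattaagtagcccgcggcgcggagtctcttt
COL13A1 (chr10:69801656-69801905, plus strand): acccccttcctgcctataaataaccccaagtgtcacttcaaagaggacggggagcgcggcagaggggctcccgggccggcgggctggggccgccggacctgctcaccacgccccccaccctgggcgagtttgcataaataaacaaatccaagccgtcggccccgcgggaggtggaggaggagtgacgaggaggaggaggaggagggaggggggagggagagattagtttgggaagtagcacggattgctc
Of these 4 runs, that of COL16A1 held the E-box, at 221 bases before the start. Both strands of 44 RefSeq promoter windows of 32 members, from 250 bases before to 50 after the start, were searched for CACCTG and for CCGTTA, the core of the OVOL motif. No window was listed for COL1A1, COL1A2, COL2A1, COL3A1, COL5A2, COL6A1, COL6A5, COL8A1, COL9A3, COL14A1, COL20A1 and COL22A1, so these were not searched. CACCTG was in 5 windows (11.4%), those of COL16A1, COL4A3, COL4A4, COL8A2 and COL9A2, against 20.6% of 35116 promoters. CCGTTA was in 2 windows (4.55%), of COL24A1 and COL4A6, against 3.07%. The windows of COL4A3 and COL4A4 overlap and share sequence, and some genes have more than 1 window. A match describes letters in a window and no binding.

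Detection of the collagens was uneven across lines. Of the 40 described members, 18 reached 10 counts in all 17 groups and 22 in some of them. The plot of group means shows members counted in every group, such as COL5A2, COL11A1, COL18A1 and COL1A1, and a larger set near 0.

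**Figure D1:**
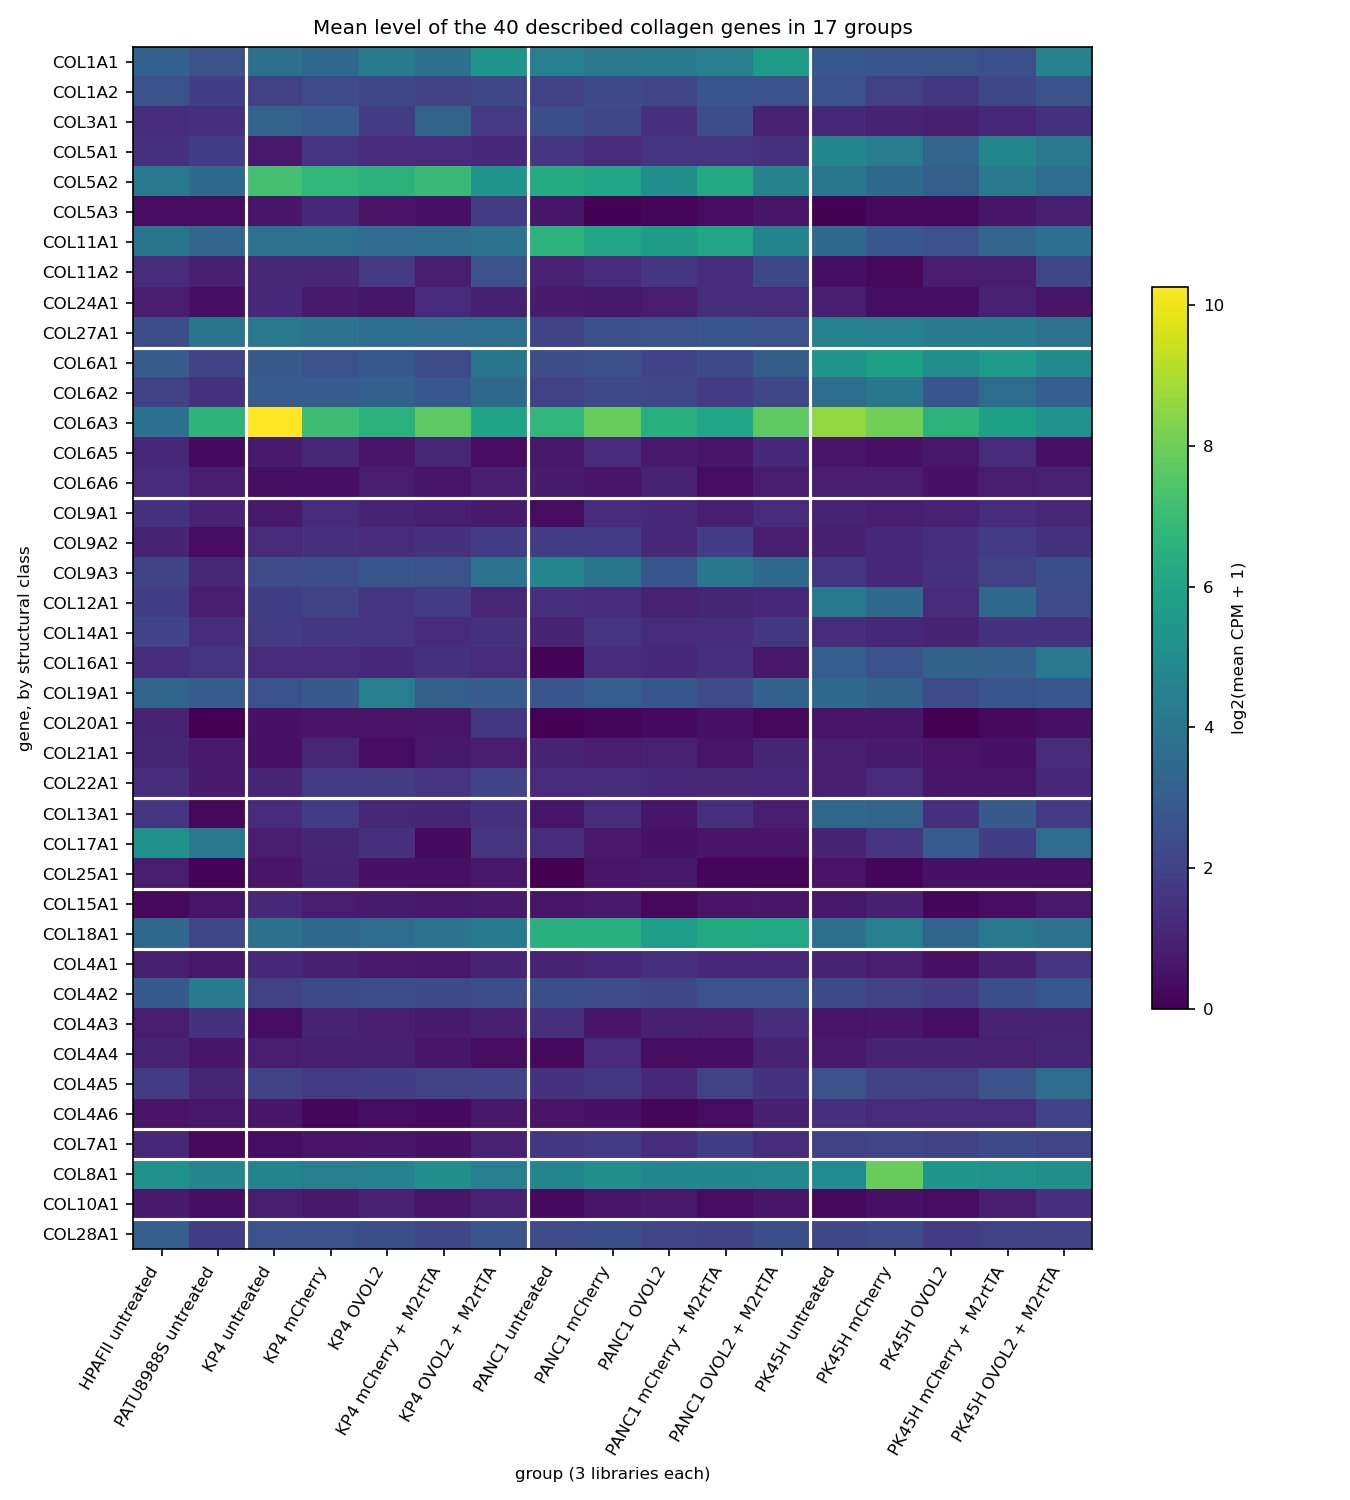
Group means of the 40 described collagen genes in the 17 groups, coloured by log2 of mean CPM plus 1 (n = 3 libraries per group). Read along its row, COL5A2 is brightest (highest) in KP4 and PANC1 groups, COL17A1 in HPAFII and PATU8988S, and COL5A1, COL6A1, COL12A1 and COL13A1 in untreated or mCherry PK45H groups.

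With M2rtTA, libraries with OVOL2 were compared with mCherry libraries to ask which collagens differ with the factor. Over the mean of the 3 lines, 8 of 33 tested collagens passed the test (24.2%), beside 32.9% of all genes tested: COL1A1, COL11A2, COL6A1, COL17A1 and COL4A6 rose, and COL5A2, COL3A1 and COL12A1 fell. The median change of the 33 was 0.22 on the log2 scale, beside 0.03 over all genes tested, and 19 of the 33 were positive. By structure, 2 of 10 tested fibrillar members rose and 2 fell. Of the 3 tested type VI members 1 rose, as did 1 of 5 of type IV and 1 of 2 transmembrane ones, and 1 of 9 FACIT members fell. The 25 other tested members lay between −0.66 and 1.36.

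COL1A1, on chromosome 17 (50184101 to 50201631, GRCh38.p14), encodes the main chain of type I collagen, the chief fibril of stroma. In KP4 it stood at 18.2, 8.17 and 11.8 CPM in the mCherry libraries with M2rtTA and at 37.0, 37.4 and 45.1 CPM with OVOL2. PANC1 gave 21.3, 14.3 and 24.5 against 34.6, 47.3 and 58.2 CPM. PK45H gave 5.02, 4.81 and 4.35 against 20.0, 23.6 and 24.1 CPM. In each line the OVOL2 libraries were all above the mCherry libraries, without overlap. The change was 1.72 (SE 0.144, adjusted p 1.19e-11) over lines, and 1.64, 1.26 and 2.26 in KP4, PANC1 and PK45H. COL1A2, the partner chain of type I collagen, did not pass the test over lines with M2rtTA (0.22, adjusted p 0.54) or without it (−0.23, adjusted p 0.61).

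COL5A2, a chain of type V collagen that is built into type I fibrils and limits their width, fell in the same comparison by 1.29 on the log2 scale (SE 0.108, adjusted p 1.16e-11). Its levels were 127, 137 and 107 CPM in KP4 mCherry libraries with M2rtTA and 40.2, 33.9 and 44.3 CPM with OVOL2. In PANC1 they were 66.9, 77.3 and 74.4 against 23.6, 23.2 and 22.5 CPM. In PK45H they were 18.6, 16.5 and 18.3 against 9.71, 10.6 and 14.7 CPM. The OVOL2 libraries were the lower ones in all 3 lines without overlap, although the PK45H change alone (−0.60) had an adjusted p of 0.14. The fall was 1.64 in KP4 and 1.62 in PANC1, and the 3 lines differed from each other (adjusted p 0.0134).

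COL3A1, the single chain of type III collagen, which accompanies type I in pliable tissue, fell by 1.18 over lines (SE 0.225, adjusted p 7.95e-05). KP4 went from 8.07, 10.5 and 8.35 CPM to 1.51, 2.19 and 3.08 CPM, and PANC1 from 3.33, 6.01 and 3.53 to 0.975, 0.430 and 1.41 CPM, both without overlap. PK45H had 0.738, 1.67 and 1.16 CPM with mCherry and 2.43, 1.29 and 1.89 CPM with OVOL2, so its ranges overlapped and leaned the other way. Falls of 2.01 (adjusted p 0.0005) and 2.22 (adjusted p 0.00639) were called in KP4 and PANC1, COL3A1 was not among the genes tested within PK45H, and the lines differed (adjusted p 0.00104). COL3A1 and COL5A2 are convergent neighbours on chromosome 2, with 19149 bases between them in the GENCODE 29 annotation.

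COL11A2, a chain of the minor fibrillar type XI collagen, rose by 2.10 (SE 0.429, adjusted p 0.000203) from low levels. It stood at 0.897, 0 and 1.36 CPM against 4.19, 5.40 and 4.87 CPM with OVOL2 in KP4, where the groups did not overlap. In PANC1 the values were 1.11, 0.388 and 2.91 against 2.44, 4.30 and 4.46 CPM, and in PK45H 0.738, 1.30 and 0.145 against 5.86, 3.62 and 1.18 CPM, with 1 library overlapping in each. Its paralogue COL11A1 fell in PANC1 only among the lines (−1.43, SE 0.157, adjusted p 3.49e-05), from 56.5, 66.5 and 75.4 CPM to 19.3, 27.2 and 24.9 CPM. In KP4 and PK45H the COL11A1 changes were 0.22 and 0.39 and were not called, and the lines differed (adjusted p 0.00838).

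**Figure D2:**
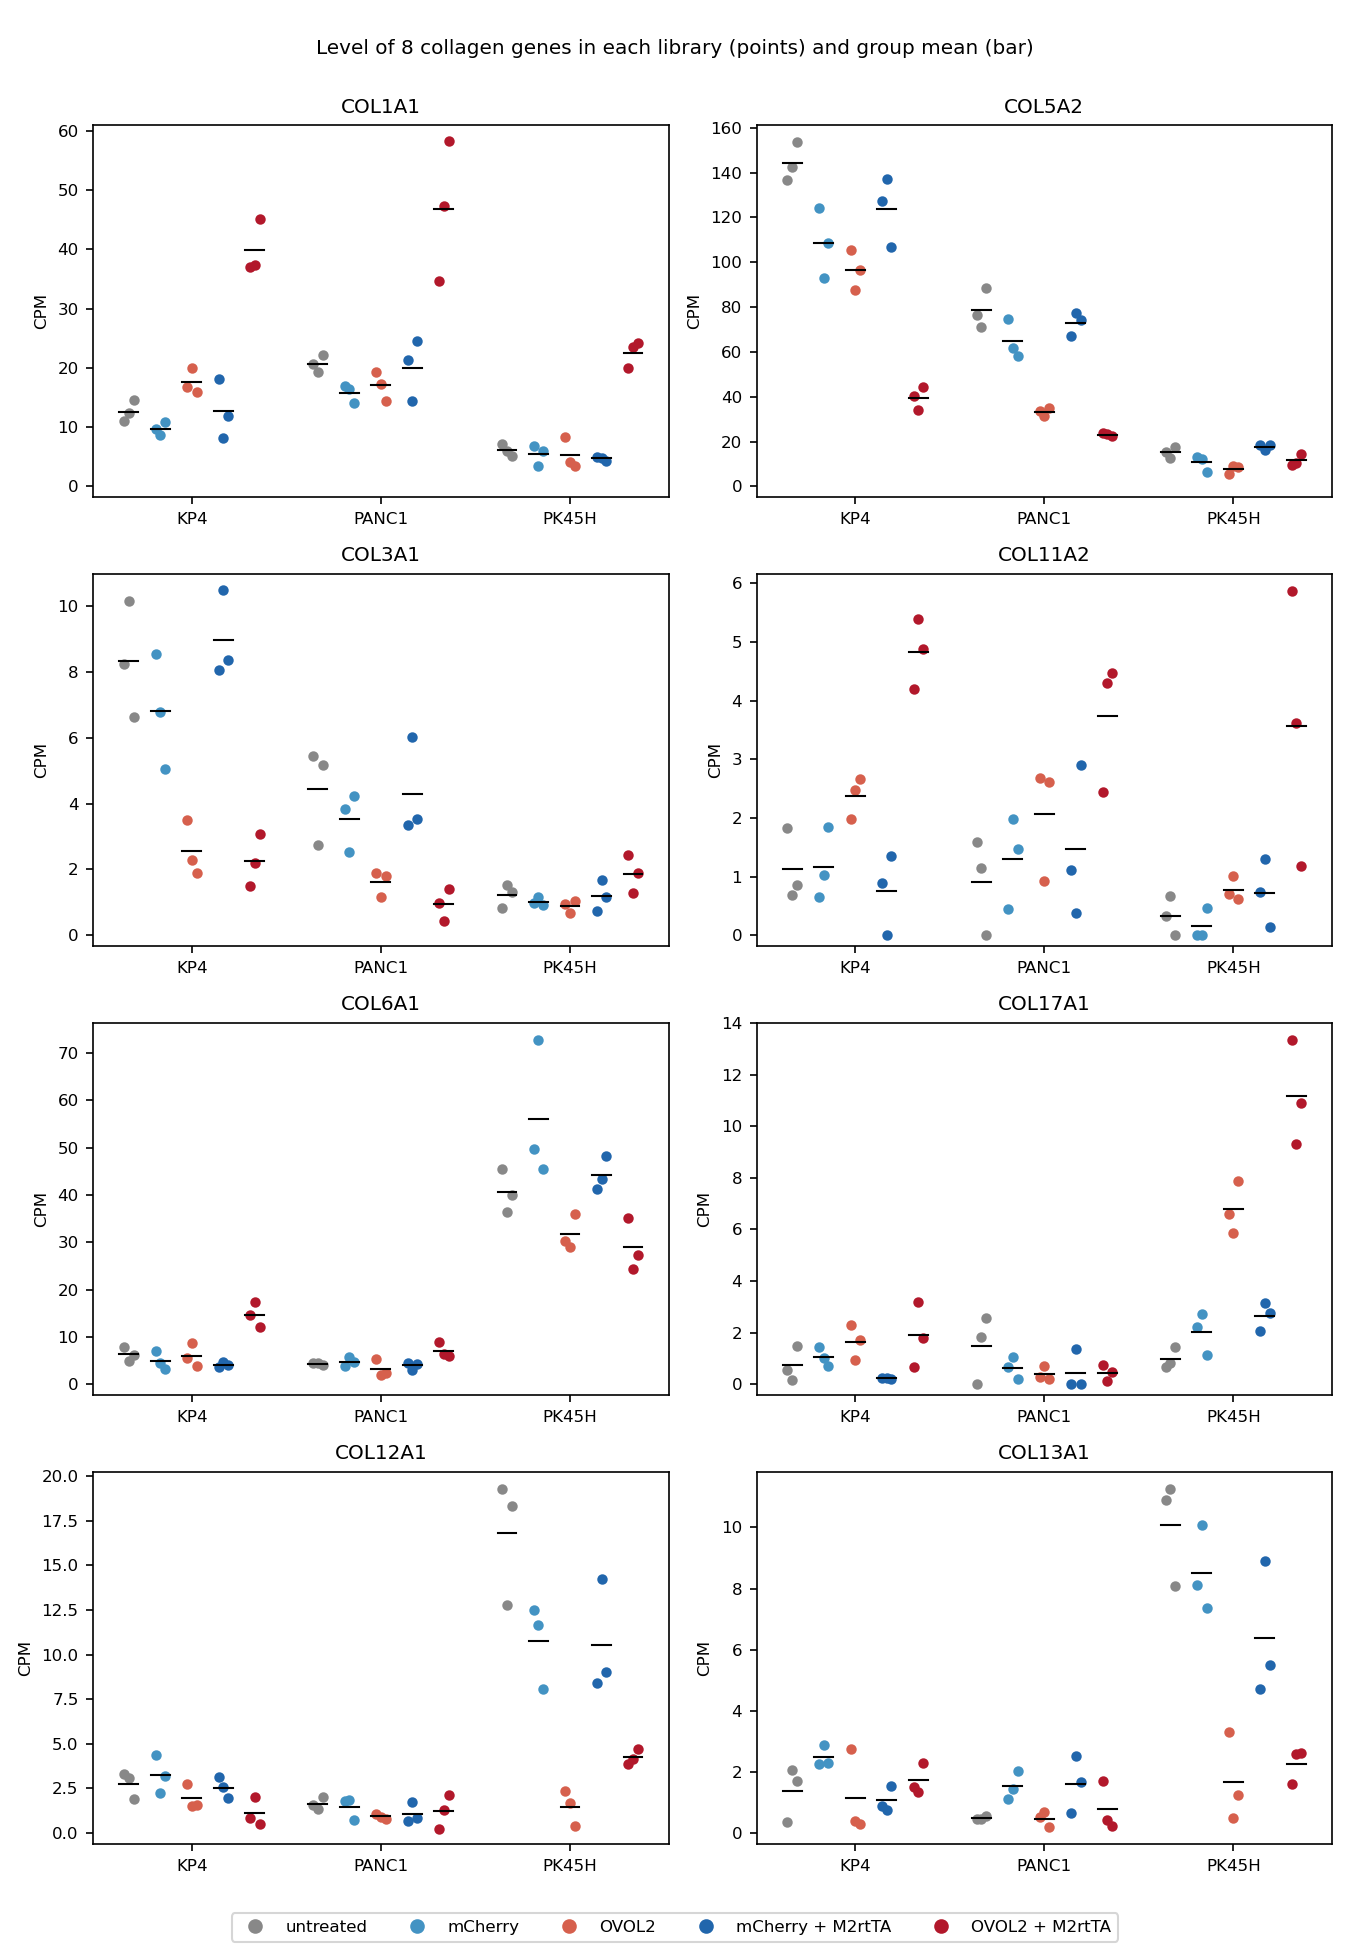
CPM in each library (points) and group mean (bar) of COL1A1, COL5A2, COL3A1, COL11A2, COL6A1, COL17A1, COL12A1 and COL13A1 in the 5 groups of KP4, PANC1 and PK45H, each panel on its own axis. COL1A1 points with OVOL2 and M2rtTA lie above, and COL5A2 points below, the mCherry points with M2rtTA in every line.

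COL6A1 encodes a chain of type VI collagen and rose by 0.70 over lines (SE 0.164, adjusted p 0.000984), with opposite signs in different lines. In KP4 it went from 3.59, 4.60 and 4.08 CPM to 14.6, 17.4 and 12.0 CPM, and in PANC1 from 4.45, 3.10 and 4.36 to 9.02, 6.31 and 5.87 CPM. PK45H, the line with the highest level, had 41.2, 43.3 and 48.2 CPM with mCherry and 35.2, 24.3 and 27.2 CPM with OVOL2. The groups did not overlap in any of the lines. KP4 gave a change of 1.85 (SE 0.332, adjusted p 0.00124), PANC1 gave 0.86 (adjusted p 0.11) and PK45H gave −0.61 (adjusted p 0.0529), and the difference between lines had an adjusted p of 0.000212. COL6A2, which lies on chromosome 21 beside COL6A1 on the same strand and encodes its partner chain, moved with the same signs: KP4 gave 0.87 (adjusted p 0.035), PANC1 gave 0.55 (adjusted p 0.479) and PK45H gave −0.64 (adjusted p 0.0694). Its lines differed as well (adjusted p 0.0371).

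COL17A1 rose by 1.62 over lines (SE 0.528, adjusted p 0.0166). In PK45H, its level was 2.07, 3.15 and 2.76 CPM with mCherry and M2rtTA and 13.3, 9.32 and 10.9 CPM with OVOL2 and M2rtTA, a rise of 2.08 (SE 0.311, adjusted p 0.000533) without overlap. KP4 had 0.224, 0.255 and 0.194 against 0.671, 3.21 and 1.79 CPM, and PANC1 0, 1.36 and 0 against 0.731, 0.143 and 0.470 CPM. These are 1 count in each KP4 mCherry library, 4, 19 and 7 counts in the KP4 OVOL2 libraries and 0 to 7 counts in the PANC1 libraries. COL17A1 lost its call over lines without PANC1 OVOL2 with M2rtTA replicate 1 (adjusted p 0.0761), and its change grew to 3.07 without PANC1 mCherry with M2rtTA replicate 2, the library with 1.36 CPM. COL4A6, a basement membrane chain, rose by 1.34 (SE 0.529, adjusted p 0.0482) at levels up to 4.66 CPM, and this call was lost in 13 of the 18 fits that left out 1 library of the comparison (adjusted p 0.0548 to 0.119).

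COL12A1, a FACIT chain bound to type I fibrils, fell by 0.73 over lines (SE 0.281, adjusted p 0.0432). Within lines it was called in PK45H, where 8.42, 14.2 and 8.996 CPM stood against 3.84, 4.14 and 4.73 CPM (−1.30, SE 0.355, adjusted p 0.0238). The call over lines was lost in 10 of the 18 fits that left out 1 library (adjusted p 0.0578 to 0.192), the highest without PANC1 mCherry with M2rtTA replicate 2. The transmembrane COL13A1 also fell in PK45H with M2rtTA (−1.48, SE 0.452, adjusted p 0.0396), from 4.72, 8.88 and 5.51 CPM to 1.62, 2.59 and 2.60 CPM. COL16A1, a FACIT chain, rose there (1.11, SE 0.282, adjusted p 0.0163), from 8.86, 6.85 and 7.83 CPM to 20.8, 18.1 and 11.8 CPM. COL16A1 was at most 2.14 CPM in every transduced KP4 library, and its change differed between lines (adjusted p 0.0077). In PANC1 with M2rtTA it had 0.831 to 2.13 CPM with mCherry and 0.287 to 0.731 CPM with OVOL2. These are 4 to 11 against 2 to 3 counts, and COL16A1 was not among the genes tested within PANC1.

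Within single lines with M2rtTA, the call counts were 8 of 24 tested collagens in KP4 (5 rose, 3 fell) beside 22.4% of all genes, 4 of 21 in PANC1 (1 rose, 3 fell) beside 13.9%, and 6 of 24 in PK45H (3 rose, 3 fell) beside 15.9%. The KP4 count was 6 to 7 when 1 library was left out. The PK45H count dropped to 2 without PK45H mCherry with M2rtTA replicate 2, and to 3 without its replicate 3 or without OVOL2 with M2rtTA replicate 2. The lines differed for 6 of the 33 collagens tested over lines, beside 7.56% of all genes. The remaining KP4 calls were COL9A3 (1.48, SE 0.365, adjusted p 0.00951), a FACIT chain of cartilage, and COL8A1 (−0.71, SE 0.238, adjusted p 0.0457), a short-chain network collagen. COL9A3 went from 4.04, 4.08 and 6.41 CPM to 10.6, 11.1 and 19.7 CPM. In PK45H, COL5A1, the partner of COL5A2 in type V collagen, fell by 0.66 (SE 0.184, adjusted p 0.0275). The third rise in PK45H was that of COL1A1.

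**Figure D3:**
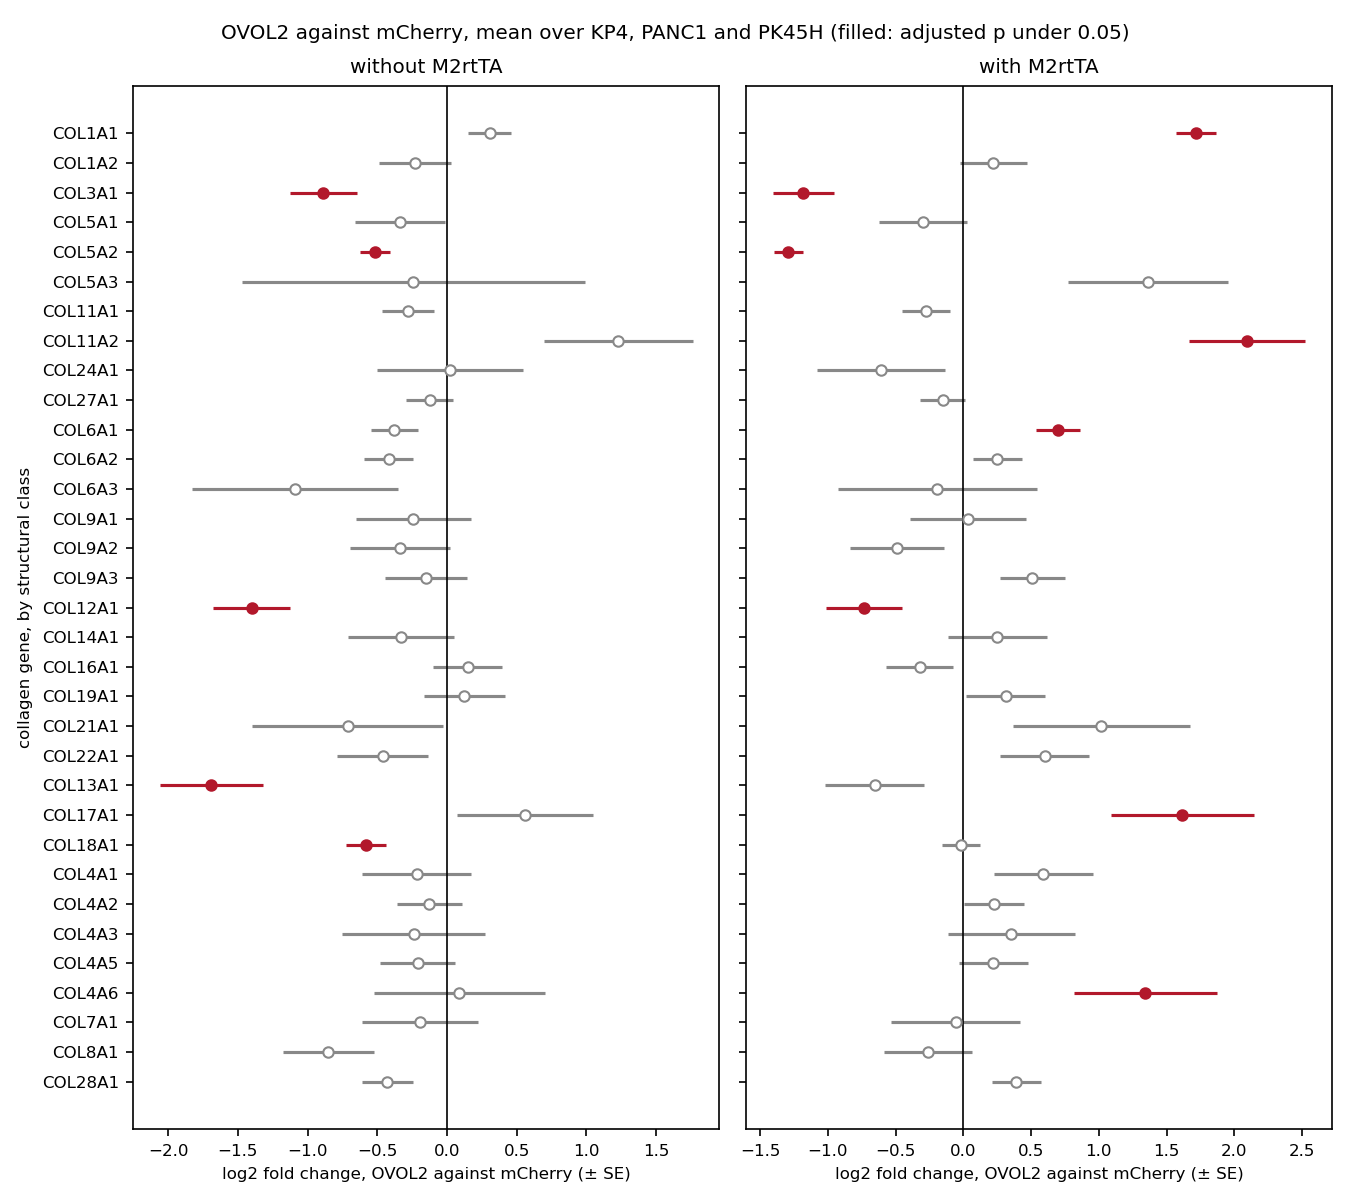
Log2 fold change (points, bars ± 1 SE) of OVOL2 against mCherry, as the mean over KP4, PANC1 and PK45H, for the 33 tested collagens with and without M2rtTA; filled points had an adjusted p under 0.05. COL1A1 is filled on the positive side with M2rtTA only, and COL5A2, COL3A1 and COL12A1 are filled on the negative side in both arms.

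Without M2rtTA, the collagens called over the mean of the lines were all lower in the libraries labelled OVOL2. Of 33 tested collagens 5 fell and 0 rose in edgeR's test over lines (15.2%), beside 18.1% of all genes. An unadjusted p under 0.05 was reached by 10 of the 33, and the share of all genes under it was not counted. The 5 were COL12A1, COL5A2, COL13A1, COL18A1 and COL3A1, and the median of the 33 was −0.24 beside 0.00 over all genes. The 28 others lay between −1.09 and 1.23. Fibrillar members gave 2 of these falls, and FACIT, transmembrane and multiplexin members 1 each. COL5A2, COL3A1 and COL12A1 fell in both arms, which do not share libraries.

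COL12A1 fell by 1.40 (SE 0.277, adjusted p 0.000304), chiefly in PK45H, where 12.5, 11.6 and 8.04 CPM with mCherry stood against 2.36, 1.68 and 0.415 CPM in the libraries labelled OVOL2 (−2.87, SE 0.414, adjusted p 0.000595). In KP4 the levels were 4.35, 2.26 and 3.22 against 2.75, 1.52 and 1.57 CPM, which overlapped. COL13A1 fell by 1.69 (SE 0.369, adjusted p 0.00102), and in PK45H from 8.10, 10.1 and 7.35 CPM to 3.30, 0.504 and 1.25 CPM (−2.42, SE 0.474, adjusted p 0.00605). Both genes thus dropped in PK45H without overlap, as they did with M2rtTA. COL3A1 fell by 0.89 over lines (SE 0.24, adjusted p 0.00783), in KP4 from 8.54, 6.78 and 5.06 to 3.51, 2.28 and 1.88 CPM.

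COL5A2 fell by 0.52 without M2rtTA (SE 0.109, adjusted p 0.00071), with its clearest separation in PANC1: 74.5, 61.8 and 58.4 CPM against 33.8, 31.4 and 35.0 CPM (−0.95, SE 0.134, adjusted p 0.000967). KP4 had 124, 93.1 and 109 against 105, 87.5 and 96.5 CPM, overlapping ranges with a change of −0.17 (adjusted p 0.58). COL18A1, a multiplexin whose end fragment is endostatin, fell by 0.58 (SE 0.144, adjusted p 0.00345). It went from 67.7, 81.0 and 112 to 43.8, 58.3 and 50.9 CPM in PANC1 and from 19.9, 17.8 and 24.4 to 7.08, 11.4 and 8.30 CPM in PK45H, without overlap, while KP4 had 10.3, 8.01 and 12.0 against 12.2, 11.2 and 10.8 CPM. Exons of COL18A1 overlap SLC19A1 on the opposite strand in GENCODE 29, and since the strand used in counting is not stated, their reads cannot be told apart. The same holds for COL9A3 with TCFL5, COL19A1 with LMBRD1 and COL4A2 with its antisense genes.

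Within lines without M2rtTA, 2 of 24 tested collagens were called in KP4 (1 rose, 1 fell) beside 6.82% of all genes, 3 of 21 in PANC1 (0 rose, 3 fell) beside 5.08%, and 7 of 24 in PK45H (1 rose, 6 fell) beside 8.39%. The KP4 rise was COL1A1 (0.86, SE 0.235, adjusted p 0.0422), from 9.67, 8.63 and 10.8 to 16.8, 20.0 and 16.0 CPM. Of the 2 KP4 calls, 0 were left without mCherry replicate 1, OVOL2 replicate 2 or OVOL2 replicate 3, and 1 without mCherry replicate 2 or 3. In PANC1 and PK45H the COL1A1 ranges overlapped without M2rtTA. The PK45H rise was COL17A1 (1.76, SE 0.355, adjusted p 0.00709), from 2.21, 2.71 and 1.15 to 6.61, 5.88 and 7.88 CPM. The falls in PK45H included both type VI partners, COL6A2 (−1.45, SE 0.231, adjusted p 0.00141) and COL6A1 (−0.85, SE 0.199, adjusted p 0.0163), and COL5A1 (−1.10, SE 0.195, adjusted p 0.00297). In PANC1, COL9A3 fell by 1.36 (SE 0.232, adjusted p 0.00364), from 13.7, 17.4 and 13.2 to 5.37, 4.84 and 6.84 CPM, where the KP4 rise of the same gene with M2rtTA has the other sign. The lines differed for 2 of 33 collagens, COL6A2 (adjusted p 0.0379) and COL19A1 (adjusted p 0.0479), beside 2.74% of all genes, and leaving out 1 library gave 0 to 2.

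Whether the OVOL2 change itself differed with M2rtTA was tested within each line. In KP4, 1 of 24 collagens passed, beside 1.43% of all genes: the COL5A2 change was lower by 1.47 on the log2 scale with M2rtTA (SE 0.203, adjusted p 0.00496). In PK45H, 1 of 24 passed, beside 1.6%: the COL1A1 change was higher by 2.37 (SE 0.426, adjusted p 0.0133), a call that was lost without PK45H mCherry replicate 1. In PANC1, 0 of 21 passed in edgeR's test beside 0.136%, 7 had an unadjusted p under 0.05, and DESeq2 called 1, COL11A1. The share of all genes under that unadjusted p was not counted. The difference for COL1A1 was 0.78 in KP4 (adjusted p 0.275) and 1.14 in PANC1 (adjusted p 0.194).

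The control comparisons gave no collagen call in edgeR. For mCherry against untreated cells, 0 of 24, 0 of 21 and 0 of 24 collagens were called in KP4, PANC1 and PK45H, beside 0%, 0.598% and 0.00736% of all genes. An unadjusted p under 0.05 was reached by 2, 2 and 5 of them, and DESeq2 called 0, 1 (COL11A1) and 0. The share of all genes under that unadjusted p was not counted, here or in the next comparison. COL11A1 in PANC1 stood at 65.7, 61.9 and 62.6 CPM with mCherry and at 104, 96.4 and 90.2 CPM in untreated cells. For mCherry with against without M2rtTA, 0 collagens were called in each line, beside 0%, 0% and 0.0294% of all genes. Here 1, 0 and 3 had an unadjusted p under 0.05, and DESeq2 called 0 in each line.

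The summed level of fibroblast and stellate cell markers, a list of 10 genes, was lower in the OVOL2 libraries in both arms. With M2rtTA the sum was 24.3 to 33.9 CPM with OVOL2 against 87.6 to 93.2 with mCherry in KP4, 41.1 to 48.0 against 56.2 to 62.2 in PANC1, and 43.3 to 52.6 against 55.2 to 56.3 in PK45H. Without M2rtTA it was 31.6 to 39.1 against 74.0 to 74.6, 33.9 to 35.2 against 48.7 to 58.0, and 31.5 to 36.8 against 47.9 to 62.0 CPM. In KP4 most of the sum was RGS5, at 64.3 CPM with mCherry and M2rtTA and 10.9 with OVOL2 and M2rtTA, while DES was at 0 in most groups, LUM in several and PDGFRB in PK45H with OVOL2 in both arms. Single markers also went the other way with M2rtTA. PDGFRA had a higher mean with OVOL2 in KP4 (0.616 against 0.374 CPM), PANC1 (1.72 against 0.827) and PK45H (2.48 against 1.03), DCN in KP4 (3.15 against 2.32) and PANC1 (3.50 against 2.66), and ACTA2 in PK45H (8.56 against 7.20). Differences of single markers were not tested. The part of these markers in the collagen changes was not tested. In a bulk library of a cell line, fewer cells with these markers and less marker RNA per cell cannot be told apart.

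Among untreated cells, the collagens set the lines apart. For the mean of HPAFII and PATU8988S against the mean of KP4, PANC1 and PK45H, 13 of 23 tested collagens passed (56.5%), beside 34.8% of all genes: COL17A1 and COL4A2 were higher in HPAFII and PATU8988S and 11 were lower. The median of the 23 was −0.91, beside −0.01 over all genes. Lower were 4 of 7 tested fibrillar members, 3 of 3 of type VI, 2 of 5 FACIT members, 1 of 2 transmembrane ones and the 1 multiplexin. Between any of the 5 lines, 19 of 23 collagens differed, beside 57.8% of all genes. Fibroblast markers summed to 18.5 to 29.7 CPM in the HPAFII and PATU8988S libraries and to 61.8 to 113 CPM in the others, and their part in these differences was not tested.

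COL17A1 was the member most in excess: 39.8, 18.8 and 46.1 CPM in HPAFII and 18.2, 15.8 and 15.5 CPM in PATU8988S, against 0 to 2.58 CPM in the 9 other untreated libraries, a difference of 4.58 (SE 0.37, adjusted p 2.33e-07) with no overlap. The PK45H libraries with OVOL2 and M2rtTA, at 9.32 to 13.3 CPM, lay between these levels. COL4A2, a main chain of the basement membrane network, was higher by 1.41 (SE 0.334, adjusted p 0.00415). PATU8988S, at 20.0, 15.3 and 17.9 CPM, lay above all other lines. HPAFII, at 2.91, 12.5 and 3.77 CPM, overlapped the 1.65 to 7.76 CPM of the other 3 lines, and 12.5 was the shallowest library.

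COL5A2 was lower by 2.07 (SE 0.195, adjusted p 1.23e-06), and its order over the lines ran from KP4 (136, 142 and 154 CPM) through PANC1 (76.5, 70.9 and 88.5) to PK45H (15.2, 12.8 and 17.6), HPAFII (13.6, 25.8 and 11.1) and PATU8988S (11.9, 13.2 and 6.87). The last 3 lines overlapped each other, and KP4 and PANC1 lay above them. COL18A1 was lower by 2.01 (SE 0.136, adjusted p 3.66e-08) and was far highest in PANC1, at 92.3, 83.7 and 92.5 CPM. KP4 (11.5 to 13.2 CPM), PK45H (10.9 to 13.4) and HPAFII (8.41 to 12.5) overlapped, and PATU8988S was lowest at 3.04 to 4.34 CPM. COL11A1 and COL9A3, also lower on average by 1.01 and 1.67, were likewise raised in PANC1: 90.2 to 104 CPM against 5.22 to 19.5 elsewhere for COL11A1, and 22.1 to 27.4 against 0.760 to 6.25 for COL9A3.

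**Figure D4:**
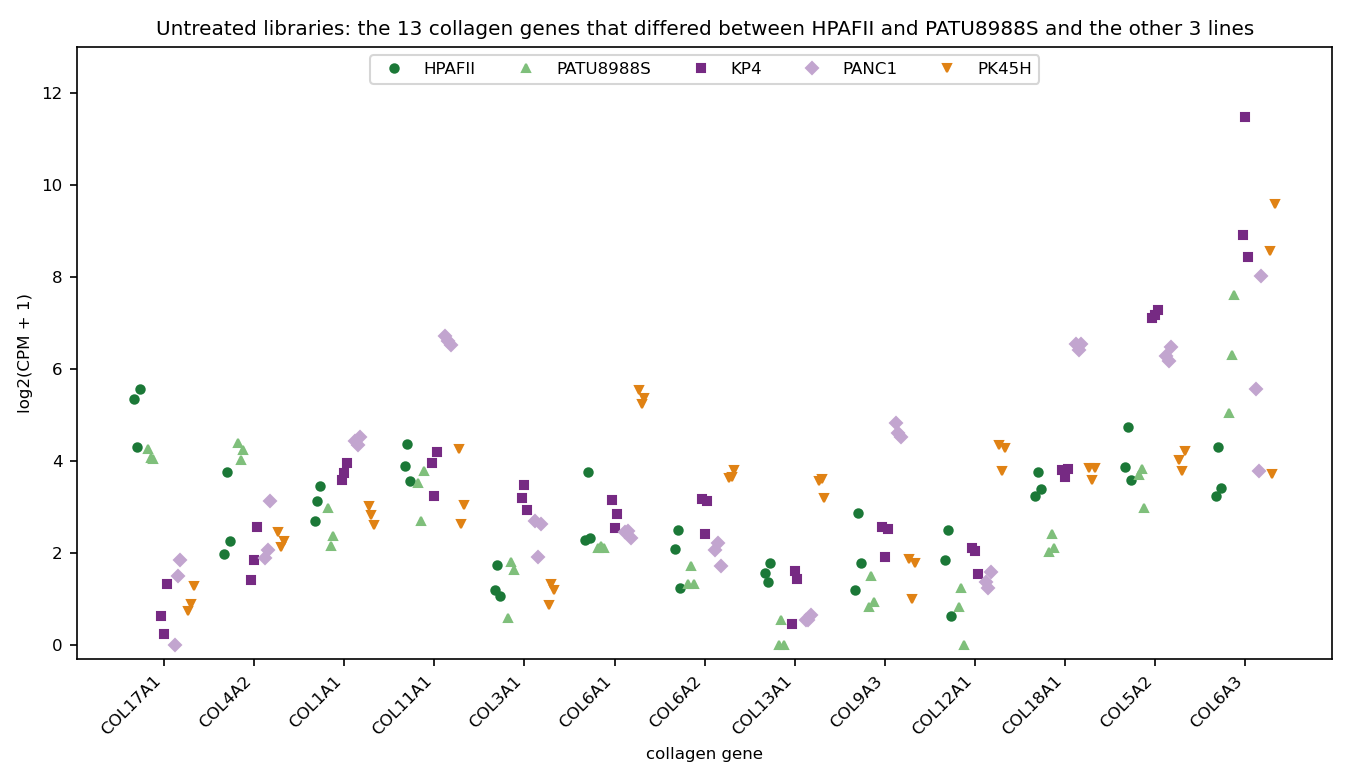
Log2 of CPM plus 1 in each untreated library of the 5 lines for the 13 collagens called between HPAFII with PATU8988S and the other 3 lines (3 libraries per line). COL17A1 separates HPAFII and PATU8988S from the rest, while COL18A1, COL11A1 and COL9A3 stand out in PANC1 and COL6A1, COL6A2, COL12A1 and COL13A1 in PK45H.

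PK45H was highest in some members, picked out after the values were seen. For COL5A1, COL6A1, COL6A2, COL12A1, COL13A1 and COL16A1, its 3 untreated libraries lay above every untreated library of the other lines. COL27A1 did so narrowly, at 22.3, 19.69 and 24.0 CPM against up to 19.65 in KP4 replicate 3. Such separation was not counted over all genes. COL5A1 stood at 23.2, 27.9 and 25.3 CPM against 0.172 to 4.05, and COL6A1 at 45.5, 36.5 and 40.0 against 3.29 to 12.5. COL12A1 stood at 19.3, 12.8 and 18.3 CPM against 0 to 4.69, and COL13A1 at 10.9, 11.3 and 8.09 against 0 to 2.42. These genes encode chains of 4 structural classes. In the comparison of the line means, COL6A2 (−1.47, adjusted p 0.000672), COL6A1 (−1.21, adjusted p 0.00104), COL12A1 (−1.70, adjusted p 0.00629) and COL13A1 (−1.59, adjusted p 0.0283) were lower in HPAFII and PATU8988S. All 4 were called in HPAFII and in PATU8988S against PK45H. Against KP4, COL6A2 was also called in both, COL12A1 and COL13A1 in PATU8988S, and COL6A1 in neither. Against PANC1, COL13A1 was called higher in HPAFII, at 1.94, 1.56 and 2.42 CPM against 0.45, 0.46 and 0.57. None of the 4 was called lower against PANC1 in either line. The COL13A1 call was lost without HPAFII replicate 1, KP4 replicate 2, PANC1 replicate 3, or PATU8988S replicate 1 or 3 (adjusted p 0.0504 to 0.0757), and its change moved to −3.00 without PATU8988S replicate 2. All 3 PATU8988S libraries had 3 counts or fewer of COL13A1, so its fitted change depends on few counts there.

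COL1A1 was lower in HPAFII and PATU8988S by 0.91 (SE 0.186, adjusted p 0.00141). It was highest in PANC1 (20.6, 19.4 and 22.1 CPM), next in KP4 (11.0, 12.4 and 14.5), and overlapped among PK45H (5.06 to 7.09), HPAFII (5.50 to 9.97) and PATU8988S (3.43 to 6.84). COL3A1 was lower by 1.18 (adjusted p 0.0164, and 0.0541 without HPAFII replicate 3), at 6.62 to 10.1 CPM in KP4 and 2.74 to 5.43 in PANC1 against 0.507 to 2.51 in the other 3 lines. HPAFII and PATU8988S also differed from each other in 5 of 23 collagens, beside 20.2% of all genes. In HPAFII, COL28A1 (1.53) and COL18A1 (1.48) were higher, and COL27A1 (−1.72) and COL4A2 (−1.66) lower, than in PATU8988S. COL13A1 was higher too, at 1.56 to 2.42 CPM against 0 to 0.457, and since every PATU8988S library had 3 counts or fewer no fold is given.

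The other pairs of untreated lines differed in more collagens. HPAFII differed from KP4 in 8 of 23 (29.9% of all genes), from PANC1 in 9 (28.7%) and from PK45H in 10 (25.2%). PATU8988S differed from KP4 in 13 (32.5%), from PANC1 in 11 (29.3%) and from PK45H in 11 (28.3%). KP4 differed from PANC1 in 10 (21.9%) and from PK45H in 10 (23.5%), and PANC1 differed from PK45H in 14 (25.6%), the highest count of the 10 pairs.

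COL6A3, the long chain of type VI collagen, varied widely between libraries of 1 group. In untreated KP4 it had 481, 2836 and 346 CPM, in untreated PK45H 377, 12.1 and 771 CPM, and in untreated PANC1 46.1, 12.8 and 258 CPM. Over all collagens, 14 values in 10 genes were at least 5 times both other libraries of their group at 10 or more counts, and 4 of these were COL6A3: 16496 counts against 2631 and 1619 in untreated KP4 replicate 2, 2714 against 196 and 130 in KP4 mCherry with M2rtTA replicate 3, 839 against 139 and 30 in PANC1 OVOL2 replicate 1, and 899 against 204 and 56 in untreated PANC1 replicate 3. COL8A1 had 1 such value, with 2574 counts against 194 and 70 in PK45H mCherry replicate 1. The remaining values were at 10 to 30 counts, where counting error is large. Such values were not counted over all genes. As a share of all collagen counts, COL6A3 ranged from 5.72% in HPAFII to 69.1% in untreated KP4, by group means. It was called between untreated lines (−3.39, SE 0.887, adjusted p 0.00809) and in no OVOL2 comparison. Untreated HPAFII had 8.41, 18.8 and 9.70 CPM. PATU8988S had 31.9, 77.7 and 195 CPM, which overlapped untreated PANC1 and PK45H. Between pairs, COL6A3 was called in HPAFII against KP4 and PK45H and in PATU8988S against KP4. It was not called in HPAFII against PANC1, or in PATU8988S against PANC1 or PK45H.

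**Figure D5:**
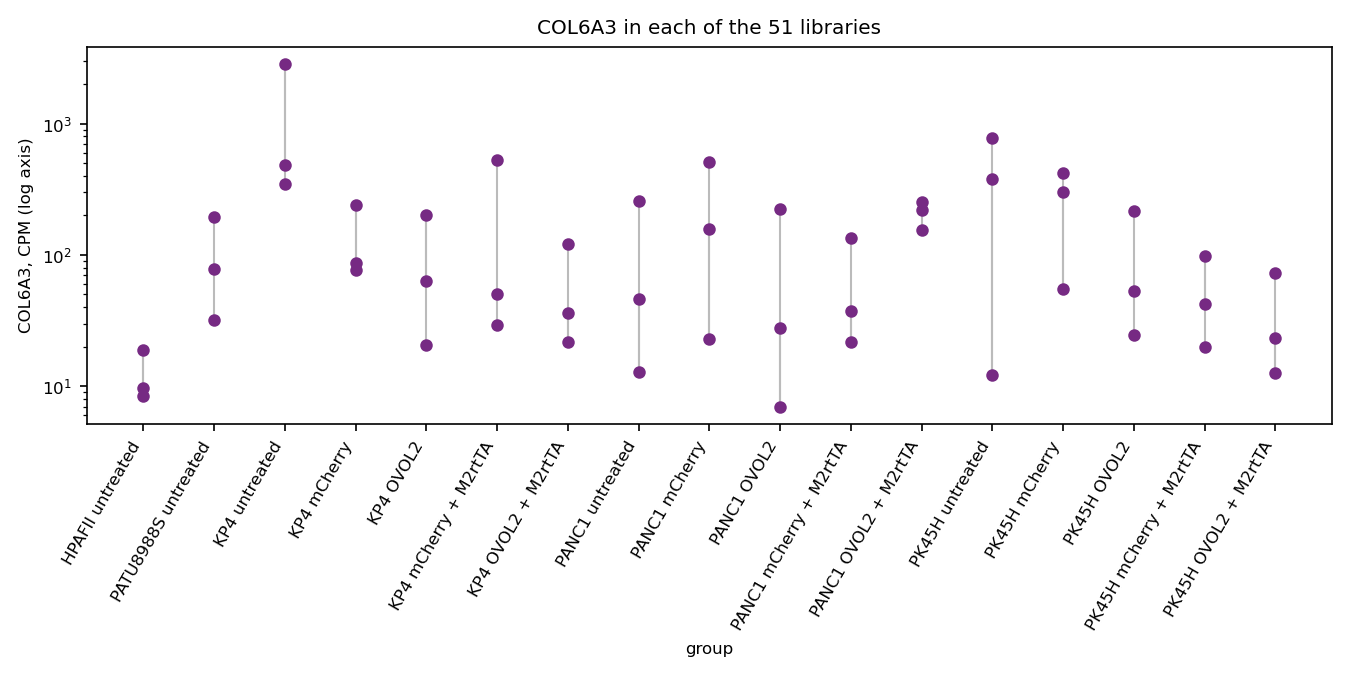
COL6A3 level in each of the 51 libraries, in CPM on a log axis, by group (3 points per group). Libraries of 1 group can lie far apart, as in untreated PK45H at 12.1 and 771 CPM.

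The genes that process, export, crosslink, bind and degrade collagens were read as a list of 56, of which 49 were tested over lines. Collagen chains are hydroxylated and folded in the endoplasmic reticulum before export, and lysyl oxidases crosslink them outside the cell. With M2rtTA, 13 of 49 passed (26.5%, beside 32.9% of all genes; 3 rose, 10 fell), with a median of 0.01 beside 0.03 over all genes. LOXL2, a lysyl oxidase, fell by 1.82 (SE 0.125, adjusted p 1.07e-13), CRTAP, part of the prolyl 3-hydroxylation complex, by 1.09 (SE 0.08, adjusted p 5.18e-13) and FKBP14, a folding isomerase, by 1.01 (SE 0.126, adjusted p 6.58e-08). The rises were DDR1, a collagen-binding receptor kinase of epithelia (0.76, SE 0.145, adjusted p 8.55e-05), MIA3, a cargo receptor for procollagen export (0.30, adjusted p 0.0351), and TMEM38B, an ion channel of the endoplasmic reticulum (0.29, adjusted p 0.0392).

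Without M2rtTA, 14 of 49 passed (28.6%, beside 18.1% of all genes; 5 rose, 9 fell), with a median of −0.19 beside 0.00. LOXL2 fell again by 1.81 (SE 0.123, adjusted p 2.21e-13), FKBP7, an isomerase of the endoplasmic reticulum, by 1.73 (SE 0.328, adjusted p 0.000193) and P3H1, the prolyl 3-hydroxylase that partners CRTAP, by 0.84 (SE 0.174, adjusted p 0.00054). ITGA2, a collagen-binding integrin chain, rose by 1.17 (SE 0.184, adjusted p 1.15e-05), DDR1 by 0.76 (SE 0.149, adjusted p 0.000281) and SERPINH1, the collagen chaperone HSP47, by 0.73 (SE 0.168, adjusted p 0.00174). In the mean over lines, LOXL2 and DDR1 thus changed alike in both arms. P3H2, CRTAP, FKBP7, PCOLCE2, LOXL1, MRC2 and MMP2 were also called in both arms. The lines differed for LOXL2 without M2rtTA and for DDR1 with M2rtTA, and DDR1 was not called within PK45H in either arm.

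Between untreated lines, 17 of 45 tested list genes differed (37.8%, beside 34.8% of all genes; 7 higher and 10 lower in HPAFII and PATU8988S), with a median of −0.11 beside −0.01. Higher were MMP1, the interstitial collagenase (4.03, SE 0.407, adjusted p 2.43e-06), CREB3L1, a transcription factor of the secretory route (1.04, SE 0.139, adjusted p 3.74e-05), and PLOD3, a lysyl hydroxylase (0.87, SE 0.134, adjusted p 0.000145). Lower were LOXL2 (−2.34, SE 0.157, adjusted p 3.41e-08), MRC2, an endocytic collagen receptor (−2.93, SE 0.373, adjusted p 2.38e-05), and LOXL1 (−2.04, SE 0.262, adjusted p 2.6e-05). These are differences of means over lines. Between pairs, MMP1 and LOXL1 were called in HPAFII against KP4, PANC1 and PK45H, and between HPAFII and PATU8988S. In PATU8988S, MMP1 was called against none of KP4, PANC1 and PK45H, and LOXL1 against PK45H only.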

How the data were processed

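PLATE-seq counts of 51 libraries were used, and every column was matched to a sample by its label. The authors deposited raw counts per gene symbol; the submitters' processing notes name kallisto 0.44.0 and GRCh38 without a role, so the whole numbers may be rounded estimates. Groups came from the labels of each sample.

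Tests used edgeR 4.0.16 in R 4.3.3 (filterByExpr by group, TMM, two-sided quasi-likelihood test, Benjamini-Hochberg over all genes, threshold 0.05). The mean over lines, and the difference between lines, came from 1 fit of 45 libraries in 15 groups. Comparisons within a line came from its 15 libraries, and those of untreated lines from the 15 untreated libraries. CPM levels used TMM factors over all 51 libraries. The code was tested on simulated data.

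Alternatives were DESeq2 1.42.0, RLE scaling, no filter, only the groups compared, replicate number as a block, thinning to the smallest library and leaving out each library. The rule for naming took collagens past the threshold, at most the 10 with the smallest p in a comparison, and, of the processing genes, the 3 of smallest p per direction. The members and lists were chosen with earlier results of these data known. Positions and promoters are from RefSeq (GRCh38.p14), and overlaps and neighbours from GENCODE 29.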

Additional observations from a re-analysis of the deposited data

Results flagged for a closer look

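In 8 tests, the OVOL2 change of a collagen differed between KP4, PANC1 and PK45H by edgeR's test over the lines. With M2rtTA these were COL6A1 (adjusted p 0.000212), COL3A1 (adjusted p 0.00104), COL16A1 (adjusted p 0.0077), COL11A1 (adjusted p 0.00838), COL5A2 (adjusted p 0.0134) and COL6A2 (adjusted p 0.0371). Without M2rtTA they were COL6A2 (adjusted p 0.0379) and COL19A1 (adjusted p 0.0479). COL6A1 and COL6A2 rose in KP4 and had negative changes in PK45H with M2rtTA. COL19A1, a FACIT chain, had changes of 1.70 (KP4), −0.38 (PANC1) and −1.01 (PK45H), with no call in any of these lines, and its KP4 libraries labelled OVOL2 spread from 4.73 to 32.5 CPM.

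In 2 tests within a line, the OVOL2 change differed between the arms with and without M2rtTA: COL5A2 in KP4 (adjusted p 0.00496) and COL1A1 in PK45H (adjusted p 0.0133).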

How the results depend on the processing

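The 26 collagen calls over lines and between untreated lines were refitted under the alternatives, where each could be tested again, and none of these values changed sign. With DESeq2 or RLE scaling all 26 passed again. Within a line, counts of calls were compared across settings. Leaving out 1 library kept the call in 399 of 429 cases and lost it in 30. With all libraries thinned to the depth of the shallowest, 22 could be tested again and 5 of these were lost: COL18A1 without M2rtTA (−0.48, adjusted p 0.0667), COL3A1 with M2rtTA (−1.03, adjusted p 0.0692), and between untreated lines COL1A1 (−0.61, adjusted p 0.105), COL6A2 (−0.60, adjusted p 0.432, from −1.47) and COL11A1 (−0.89, adjusted p 0.0531). Thinning also moved COL3A1 without M2rtTA from −0.89 to −1.49 and COL12A1 with M2rtTA from −0.73 to −1.28, both still called.

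Counts of called collagens moved by more than 1.5 times as follows. Thinning gave 5 over lines with M2rtTA, 0 and 0 for the difference between lines without and with M2rtTA, 0 in KP4 and 2 in PK45H without M2rtTA, 2 and 2 with M2rtTA, 0 for the change with M2rtTA in PK45H, 8 between untreated lines, and 9 and 8 processing genes without and with M2rtTA. The difference between lines without M2rtTA gave 1 with the replicate block, 1 with only the groups compared and 5 with DESeq2. KP4 without M2rtTA gave 1 with the block, 1 without the filter and 1 with only the groups compared. DESeq2 called 1 collagen in PANC1 for mCherry against untreated and 1 for the change with M2rtTA. The cause of these shifts was not tested, save that thinning leaves fewer counts.

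Leaving out 1 library gave 0 to 2 collagens for the difference between lines without M2rtTA, 0 to 3 in KP4 without M2rtTA, 2 to 6 in PK45H with M2rtTA (2 without PK45H mCherry with M2rtTA replicate 2, 3 without its replicate 3 or OVOL2 with M2rtTA replicate 2) and 0 to 1 for the change with M2rtTA in PK45H (0 without PK45H mCherry replicate 1). The replicate numbers did not pair the libraries: deviations of same-numbered libraries correlated at −0.147 to 0.119 (KP4), −0.0914 to 0.152 (PANC1) and −0.176 to 0.0517 (PK45H). COL4A6 with M2rtTA lost its call with the replicate block (adjusted p 0.0556) and without the filter (0.078), and COL12A1 without the filter (0.0628) and with only the groups compared (0.0826). When 1 library was left out, COL4A6 kept its call only without replicate 1 of KP4 mCherry, KP4 OVOL2, PK45H mCherry or PK45H OVOL2 or replicate 3 of PANC1 OVOL2, and COL12A1 only without KP4 mCherry 3, KP4 OVOL2 2, PANC1 mCherry 1 or 3, PANC1 OVOL2 3, PK45H mCherry 1 or 3 or PK45H OVOL2 3, all with M2rtTA.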
